A study of Mus musculus with 12 samples.

Results

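Glycolysis enzymes and the main glucose carrier were followed in *Filip1l*-knockdown and control (CTL) lung cancer allografts. The 10 members were chosen by name, as *Slc2a1* and 9 enzymes on the way from glucose to lactate (*Hk2*, *Gpi1*, *Pfkl*, *Aldoa*, *Tpi1*, *Pgk1*, *Pgam1*, *Eno1* and *Ldha*). All 10 were found among the 15687 genes of the table. RNA was sequenced from 12 subcutaneous tumors grown from mTc11 mouse lung cancer cells, 6 CTL tumors from cells with shControl and 6 from cells with an shRNA against *Filip1l*. Both groups descend from one parental line, carry a lentiviral hairpin and were kept as mixed clones after puromycin selection. For each tumor, 1000000 cells in growth factor-reduced Matrigel were placed under the skin of male C57BL6/J mice aged 8 weeks, and tumors were taken on day 24 and snap-frozen. Which of the *Filip1l* hairpins made for this line was sequenced is not given in the labels. The labels number the tumors as biological replicates, and p-values measure the spread between them. They do not cover the spread between separately transduced cell pools. A difference between the pools that was there apart from the knockdown cannot be told apart from it. A whole tumor also holds host cells, and more cells of a type cannot be told apart from more RNA per cell.

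Glycolysis splits glucose into pyruvate in the cytosol, and lactate dehydrogenase turns the pyruvate into lactate while restoring the NAD+ that the pathway uses. Tumors are known for high glucose uptake and lactate output also where oxygen is present. Genes of this pathway are textbook targets of the hypoxia-inducible factors, which bind DNA at letters such as ACGTG. They are also textbook targets of Myc and the carbohydrate response factors, which bind E-boxes such as CACGTG.

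Values are normalized counts, that is gene counts divided by a size factor of each tumor, and the fold changes are *Filip1l*-knockdown over CTL on the scale of log2(normalized count + 1). A gene was called at an adjusted p under 0.05 by limma over all 15687 genes. The tumors held between 17834745 and 32419578 reads on listed genes. *Filip1l* itself was 2311 ± 211 in CTL and 1924 ± 165 in *Filip1l*-knockdown tumors (mean ± SD, n = 6 each), with a difference of -0.26 on the log2 scale (SE 0.07, adjusted p = 0.00998). The groups overlapped for this gene. *Filip1l*-knockdown replicate 1 had 2184, the highest of its group. In the expression of all genes this tumor also lay farther from its own group, at a mean distance of 93.9, than the other *Filip1l*-knockdown tumors, at 77.0 to 81.0 (Euclidean distance on the log2 scale). The members' results are therefore also given without it where their calls or levels differ, and the counts of the other lists are given without it where they change.

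Stretches ahead of the start sites are shown for 5 of the 6 members whose windows hold the letters ACGTG on either strand. Of these 5, *Slc2a1*, *Hk2*, *Pgk1* and *Ldha* rose and *Pgam1* did not pass the test. Sequences are RefSeq windows on GRCm38.p6, printed 5′ to 3′ on the gene's strand and ending 20 bases before the start site, and capitals mark ACGTG or, on the other strand, CACGT. The last bases of the *Slc2a1* stretch lie in the first exon of a longer transcript in GENCODE, the *Ldha* stretch lies between exons of the GENCODE gene, and the other 3 lie upstream of their genes.
Slc2a1 (chr4:119108495-119108724, plus strand): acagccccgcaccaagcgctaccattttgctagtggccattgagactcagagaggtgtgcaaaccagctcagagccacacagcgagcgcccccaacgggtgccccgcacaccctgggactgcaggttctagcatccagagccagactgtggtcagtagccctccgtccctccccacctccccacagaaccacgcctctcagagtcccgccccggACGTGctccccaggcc
Hk2 (chr6:82774475-82774704, minus strand): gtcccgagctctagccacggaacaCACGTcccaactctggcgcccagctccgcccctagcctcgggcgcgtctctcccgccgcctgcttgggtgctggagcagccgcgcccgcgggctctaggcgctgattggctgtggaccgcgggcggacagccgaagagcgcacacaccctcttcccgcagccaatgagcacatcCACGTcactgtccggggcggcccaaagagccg
Pgk1 (chrX:106186850-106187079, plus strand): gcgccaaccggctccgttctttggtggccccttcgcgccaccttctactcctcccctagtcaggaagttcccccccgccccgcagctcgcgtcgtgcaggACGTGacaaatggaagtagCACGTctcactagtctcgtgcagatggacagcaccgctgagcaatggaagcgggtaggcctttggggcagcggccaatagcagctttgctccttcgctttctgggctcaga
Ldha (chr7:46845554-46845783, plus strand): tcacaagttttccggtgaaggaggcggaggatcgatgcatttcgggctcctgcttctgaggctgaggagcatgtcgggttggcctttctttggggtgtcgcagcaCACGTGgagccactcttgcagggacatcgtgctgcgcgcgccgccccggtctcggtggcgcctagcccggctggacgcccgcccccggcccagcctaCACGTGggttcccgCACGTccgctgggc
Pgam1 (chr19:41911621-41911850, plus strand): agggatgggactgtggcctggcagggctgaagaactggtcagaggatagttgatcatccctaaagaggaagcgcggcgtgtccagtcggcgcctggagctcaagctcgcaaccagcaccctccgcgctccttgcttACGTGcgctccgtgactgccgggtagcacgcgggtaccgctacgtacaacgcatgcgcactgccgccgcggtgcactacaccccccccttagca
Among the 10 members, 6 held ACGTG in a window of 300 bases (250 before and 50 after a start site), against 27.9% of the 11533 genes of the table that have such a window. They were the 5 above and *Aldoa*, which rose and whose stretches are not shown. The nearest match lay 36 bases before the start in *Slc2a1*, 52 in *Hk2*, 131 in *Pgk1*, 34 in *Ldha* and 114 in *Pgam1*. *Gpi1*, *Pfkl*, *Tpi1* and *Eno1* did not have these letters in their windows. Of these, *Gpi1*, *Pfkl* and *Tpi1* rose as well and *Eno1* did not pass the test. Other forms of the binding site were not searched. CACGTG, which contains ACGTG on both strands, was found in *Ldha* and in 0 of the other 9 members, against 11.1% of the genes. These are matches of letters and not measured binding sites.

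Of the 10 members, 8 rose in *Filip1l*-knockdown tumors, against 21.1% of all genes tested, and 0 fell, against 20.7%, so that 41.9% of all genes passed in either direction. The exceptions were *Pgam1* and *Eno1*. The median log2 fold change was 0.57 over the members and 0.01 over all genes. *Hk2* alone of the 10 also passed an absolute log2 fold change over 1, the study's threshold, which 6.2% of all genes passed upward, and 0 passed it downward, against 3.97% of all genes. Without replicate 1, 9 members rose, *Eno1* being added, against 22.4% of all genes, and 0 fell, against 21.8%.

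*Slc2a1* (ENSMUSG00000028645, chromosome 4, 119108711 to 119137983, plus strand, GRCm38) encodes GLUT1, the carrier through which most cells take up glucose. Its lowest, median and highest values were 5548, 6082 and 8414 in CTL tumors and 6961, 13572 and 18879 in *Filip1l*-knockdown tumors. In this gene 5 of the 6 *Filip1l*-knockdown tumors lay above every CTL tumor, from 12852 upward, and replicate 1 had the value of 6961, inside the CTL range. The means were 6511 ± 1071 and 13347 ± 3827 (n = 6 each), a ratio of 2.05 and a log2 fold change of 0.99 (SE 0.18, adjusted p = 0.000658). Without replicate 1 the log2 fold change was 1.17 (adjusted p = 3.12e-06).

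*Hk2* (ENSMUSG00000000628, chromosome 6, 82725025 to 82774454, minus strand) encodes hexokinase 2, which traps glucose in the cell as glucose 6-phosphate. It ranged from 2744 through a median of 3657 to 3975 in CTL tumors and from 5202 through 7612 to 8564 in *Filip1l*-knockdown tumors. *Hk2* was the 1 member of 10 in which every *Filip1l*-knockdown tumor lay above every CTL tumor, against 10.6% of all genes. Its means were 3488 ± 474 and 7219 ± 1162, a ratio of 2.07 and a log2 fold change of 1.04 (SE 0.12, 95% interval 0.79 to 1.30, adjusted p = 9.43e-06). Replicate 1 was the lowest of its group at 5202.

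**Figure D1:**
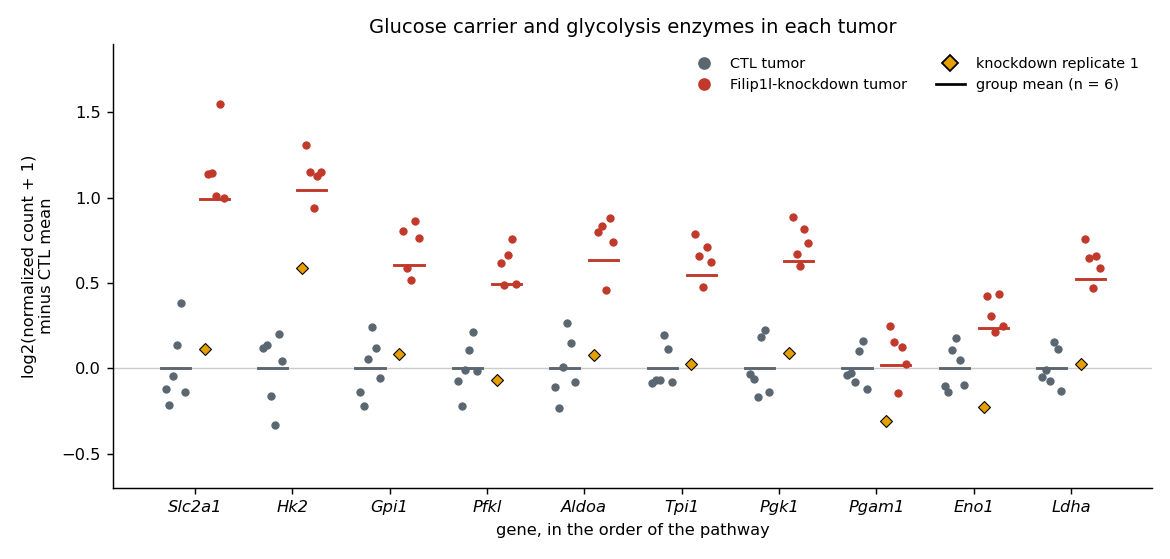
Level of each of the 10 members in each tumor, as log2(normalized count + 1) minus the CTL mean, with the genes side by side. CTL and *Filip1l*-knockdown tumors are next to each other for each gene, with *Filip1l*-knockdown replicate 1 as an orange diamond. Replicate 1 is the lowest *Filip1l*-knockdown tumor in all 10 genes, and in *Hk2* the groups are apart.

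The next steps rearrange and split the sugar. *Gpi1*, glucose-6-phosphate isomerase (ENSMUSG00000036427, chromosome 7, 34201330 to 34230336, minus strand), had 19154, 22332 and 26442 as lowest, median and highest CTL values and 23652, 35723 and 40654 in *Filip1l*-knockdown tumors. The log2 fold change was 0.60 (SE 0.12, adjusted p = 0.00134). *Gpi1* overlapped between the groups through replicate 1. *Pfkl*, the liver-type subunit of phosphofructokinase (ENSMUSG00000020277, chromosome 10, 77986947 to 78010083, minus strand), which catalyzes the committed step, ranged from 8471 through 9789 to 11466 in CTL and from 9425 through 14523 to 16717 in *Filip1l*-knockdown tumors. Its log2 fold change of 0.49 (SE 0.12, adjusted p = 0.00449) was the smallest of the 8 that rose. *Aldoa*, aldolase A (ENSMUSG00000030695, chromosome 7, 126795234 to 126800751, minus strand), which cleaves fructose 1,6-bisphosphate, ranged from 32275 to 45613 around a median of 36946 in CTL and from 40029.8 to 69721 around 64584 in *Filip1l*-knockdown tumors. The log2 fold change of *Aldoa* was 0.63 (SE 0.13, adjusted p = 0.00167). *Tpi1*, triose-phosphate isomerase (ENSMUSG00000023456, chromosome 6, 124810586 to 124814296, minus strand), had 18852, 19081 and 22962 in CTL and 20365, 31223 and 34538 in *Filip1l*-knockdown tumors. *Tpi1* rose by a log2 fold change of 0.55 (SE 0.11, adjusted p = 0.00141). In each of these 4 genes replicate 1 lay inside the CTL range and the other 5 *Filip1l*-knockdown tumors lay above it.

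*Pgk1* and *Ldha*, at the steps that yield ATP and lactate, rose as well. *Pgk1*, phosphoglycerate kinase 1 (ENSMUSG00000062070, chromosome X, 106187100 to 106203699, plus strand), which makes ATP, had 20388, 22153 and 26753 as lowest, median and highest CTL values and 24357, 37258 and 42283 in *Filip1l*-knockdown tumors. It rose by a log2 fold change of 0.63 (SE 0.12, adjusted p = 0.000863). *Ldha*, the lactate dehydrogenase subunit that favors lactate formation (ENSMUSG00000063229, chromosome 7, 46841475 to 46855627, plus strand), had 33757, 36223 and 41166 in CTL and 37710.3, 56687 and 62546 in *Filip1l*-knockdown tumors. Its log2 fold change was 0.53 (SE 0.11, adjusted p = 0.00154). Both genes overlapped between groups through replicate 1, at 24357 for *Pgk1* and 37710.3 for *Ldha*.

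*Pgam1* and *Eno1*, which act one after the other between *Pgk1* and pyruvate kinase, did not pass the test. *Pgam1*, phosphoglycerate mutase 1 (ENSMUSG00000011752, chromosome 19, 41911923 to 41918660, plus strand), had 6483, 6884 and 7856 in CTL and 5673, 7425 and 8362 in *Filip1l*-knockdown tumors. Its log2 fold change was 0.02 (95% interval -0.17 to 0.21, adjusted p = 0.903). *Pgam1* lies on chromosome 19, where the median log2 fold change of 458 genes was -0.35. With each chromosome's median removed, the log2 fold change of *Pgam1* was 0.38 (adjusted p = 0.00406), and the part of the chromosome in this result was not tested. The medians of chromosomes 4, 6, 7, 10 and X, which hold the other 9 members, lay between -0.03 and 0.02. *Eno1*, enolase 1 (ENSMUSG00000063524, chromosome 4, 150236721 to 150248879, plus strand), had 41153, 44531 and 51287 in CTL and 38660.3, 54849 and 61174 in *Filip1l*-knockdown tumors. The log2 fold change of *Eno1* was 0.23 (95% interval 0.00 to 0.47, adjusted p = 0.0988). Without replicate 1, which was below the lowest CTL tumor in both genes, *Eno1* rose by 0.33 (adjusted p = 0.00376) and *Pgam1* had 0.08 (adjusted p = 0.397).

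**Figure D2:**
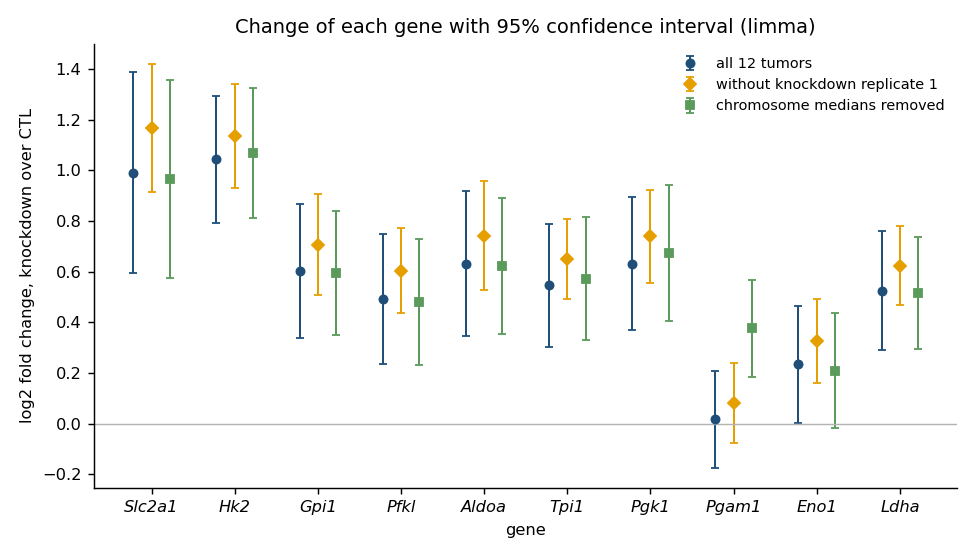
Log2 fold change of each member in *Filip1l*-knockdown over CTL tumors, with 95% intervals, for 6 tumors a group (blue), without *Filip1l*-knockdown replicate 1 (orange) and with chromosome medians removed (green). The estimates with all tumors run from 0.02 in *Pgam1* to 1.04 in *Hk2*, and each of the 10 is larger without replicate 1.

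An exact two-sided permutation test of each single gene over all 924 arrangements of the tumors gave p = 0.00216 for *Hk2*, the smallest it can give. The exact test gave p = 0.0108 for *Pfkl*, p = 0.0714 for *Eno1* and p = 0.864 for *Pgam1*. For each of the other 6 members the exact p was 0.00649. These p-values are not adjusted.

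The mean of the 10 log2 values, relative to the CTL mean, ran from -0.11 to 0.17 in CTL tumors, was 0.04 in *Filip1l*-knockdown replicate 1 and ran from 0.52 to 0.79 in the other 5. Single members departed from this mean. Among CTL tumors *Hk2* was lowest in replicate 4, at -0.33 from its own CTL mean, where the other 9 members lay at 0.10 to 0.27. Replicate 1 of the *Filip1l*-knockdown group was the lowest *Filip1l*-knockdown tumor in 10 of 10 members, against 26.3% of all genes and 39.9% of the 3167 genes whose mean level reached 2000. It was the highest in 0 of 10, against 25.6% of all genes. It lay inside the CTL range in 7 members, above it in *Hk2* and below it in *Pgam1* and *Eno1*. Without it every *Filip1l*-knockdown tumor lay above every CTL tumor in 9 of 10 members, against 14.2% of all genes.

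The order of the levels is read per kilobase of annotated exon, since longer genes collect more reads. In CTL tumors the mean level was 13104 ± 1672 normalized counts per kilobase for *Aldoa*, 11202 for *Ldha*, 10268 for *Pgk1*, 8443 for *Eno1* and 7300.1 for *Tpi1*. Then came *Pgam1* at 3560, *Gpi1* at 3481, *Slc2a1* at 1857, *Pfkl* at 1487 and *Hk2* at 584 ± 79.4. *Aldoa* thus had the highest mean level of the 10 and *Hk2* the lowest. The ranges of neighbors overlapped in this order except between *Tpi1* and *Pgam1*, between *Gpi1* and *Slc2a1* and between *Pfkl* and *Hk2*. *Pgam1* exceeded *Gpi1* in 3 of 6 CTL tumors, so these neighbors did not differ beyond their spread. In *Filip1l*-knockdown tumors *Tpi1* stood above *Eno1* in 6 of 6 tumors, at 10778 and 10003 per kilobase, the reverse of their order in 6 of 6 CTL tumors. *Pgam1* stood behind *Gpi1* at 5339 and *Slc2a1* at 3807, with 3623 of its own. *Slc2a1* exceeded *Pgam1* in 4 of 6 *Filip1l*-knockdown tumors, so these neighbors did not differ beyond their spread either. Scaled by the longest transcript instead of all exons, *Eno1* stood second and *Gpi1* ahead of *Pgam1* in CTL tumors, and *Eno1* stayed above *Tpi1* in both groups, so that reversal rests on the length used.

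Some members share sequence with copies elsewhere in the genome, where uniquely placed reads can be lost or split. Stretches of 100 bases shared with other genes covered 80.6% of the longest *Eno1* transcript, 68.8% of *Pgk1* and 43.1% of *Pgam1*. They covered 12.1% or less of the other 7, with 0 in *Aldoa*, *Hk2* and *Pfkl*. The levels of *Eno1*, *Pgk1* and *Pgam1* are uncertain for that reason. The *Eno1* copy *Eno1b* had 5178 in CTL and 5979 in *Filip1l*-knockdown tumors, a log2 fold change of 0.19 (adjusted p = 0.269). *Tpi1* overlaps *Spsb2* on the other strand, whose mean was 433, and the strand setting of the counting is not given in the sources used here.

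Most steps have more than 1 isoenzyme, and the members' part in their steps was taken as the share of the summed level per kilobase within each tumor. In 7 steps compared, exact two-sided permutation tests over tumors gave unadjusted p-values. *Hk2* held 35.7% ± 4.22 of hexokinase in CTL and 40.8% ± 1.81 in *Filip1l*-knockdown tumors (exact p = 0.0130). *Hk1*, the widely expressed hexokinase, held 54.1% in CTL and 47.4% in *Filip1l*-knockdown tumors, although its own level rose (log2 fold change 0.65, adjusted p = 1.82e-04). Scaled by the longest transcript, *Hk2* held 24.2% in CTL and 28.6% in *Filip1l*-knockdown tumors, and *Hk1* 67.5% and 61.2%. The percentages thus rest on the length used, while the directions were the same. *Pfkl* held 70.1% ± 1.88 and 65.8% ± 3.41 of phosphofructokinase (exact p = 0.0152), while the platelet-type *Pfkp* held 13.9% ± 0.896 and 21.1% ± 2.29, with groups that did not overlap. Thus the share rose for *Hk2* and fell for *Pfkl*, whose own levels both rose.

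*Pgam1* held 97.2% ± 1.18 of phosphoglycerate mutase in CTL and 91.5% ± 6.14 in *Filip1l*-knockdown tumors (exact p = 0.0173). The other part was *Pgam2*, the muscle isoenzyme, which ran from 1.72% to 4.86% in CTL and from 2.93% to 19.0% in *Filip1l*-knockdown tumors. *Slc2a1* held 87.3% ± 2.06 and 91.7% ± 3.71 of the 10 Slc2 carriers measured (exact p = 0.0390). This p rose above 0.05 when any of 10 of the 12 tumors was left out, to at most 0.0779, and was 0.00433, the smallest possible, without replicate 1, which stood lowest of its group at 84.5%. *Eno1* held 90.1% and 87.1% of enolase (exact p = 0.119) and *Ldha* 99.5% and 99.4% of lactate dehydrogenase (exact p = 0.426), so neither share passed the test.

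**Figure D3:**
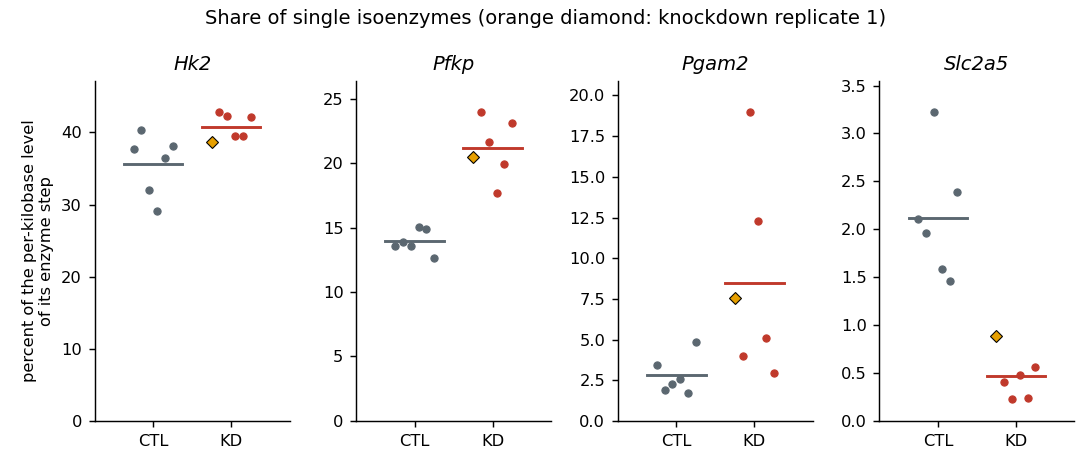
Percent of the per-kilobase level of a step held by *Hk2*, *Pfkp*, *Pgam2* and *Slc2a5* in each CTL and *Filip1l*-knockdown (KD) tumor, with *Filip1l*-knockdown replicate 1 as an orange diamond. *Pfkp* is higher and *Slc2a5* is lower in every *Filip1l*-knockdown tumor than in any CTL tumor.

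Among 16 other glycolysis enzymes in the table, 10 rose, 0 fell and 6 were not called, with a median log2 fold change of 0.65. Of all genes 21.1% rose and 20.7% fell, which is the background for this count and those of the lists below. *Gapdh*, which oxidizes glyceraldehyde 3-phosphate and is often used as a loading control, went from 65400.2 ± 9709 to 102518 ± 22219 (log2 fold change 0.63, adjusted p = 0.00442). *Pkm*, the pyruvate kinase of most tumors, rose by 0.41 (adjusted p = 0.00433) and was among the most abundant at 72030 in CTL. *Pklr*, the pyruvate kinase of liver and red cells, went from 289 ± 39.6 to 1263 ± 239 with groups apart (log2 fold change 2.11, adjusted p = 6.42e-08). *Hkdc1* went from 404 to 1146 (log2 fold change 1.54, adjusted p = 2.63e-05) and *Pfkp* from 3968 to 9051 (1.18, adjusted p = 3.86e-06). *Pklr* and *Pfkp* thus both rose with groups apart, *Pfkp* from a higher CTL level. *Pgam2* (1.48, adjusted p = 0.0118) and *Eno3* (0.64, adjusted p = 0.0166), both known from muscle, overlapped between groups, as did *Ldhb* (0.72, adjusted p = 0.0235).

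Of 9 other Slc2 carriers in the table, 3 rose and 2 fell, against 21.1% and 20.7% of all genes. The 9 include carriers of fructose and urate, and their median log2 fold change was -0.11 (-0.27 without replicate 1). *Slc2a6*, a lysosomal carrier, rose by a log2 fold change of 1.44 (adjusted p = 0.00112), *Slc2a4*, the insulin-responsive carrier of muscle and fat, by 1.87 from a low level of 13.9 (adjusted p = 0.00317) and *Slc2a9*, a urate carrier, by 0.82 (adjusted p = 5.67e-05). *Slc2a5*, the fructose carrier, fell from 151 ± 41.5 to 58.6 ± 16.2 (-1.36, adjusted p = 1.82e-04) and *Slc2a3*, the high-affinity GLUT3, from 176 to 116 (-0.62, adjusted p = 0.00503). *Slc2a1* thus rose, while of the other Slc2 carriers 3 rose, 2 fell and 4 were not called.

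Of 7 genes that set fructose 2,6-bisphosphate, the activator of phosphofructokinase, or reverse its step, 5 rose and 0 fell. Their median log2 fold change, 0.76, is the value of *Fbp1*, which was not called (adjusted p = 0.687) and stood at or under 3 normalized counts in 5 CTL and 4 *Filip1l*-knockdown tumors, and the median was 0.54 without replicate 1. Those that rose included *Pfkfb3*, from 1516 to 3334 (log2 fold change 1.16, adjusted p = 1.99e-05), *Pfkfb4* (0.81, adjusted p = 1.85e-06) and *Fbp2*, a phosphatase that works against glycolysis (1.75, adjusted p = 5.76e-05). Genes of both directions of this step rose in whole tumors, and whether they rose in the same cells was not tested.

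Of 13 genes for the entry of pyruvate into mitochondria, 7 rose and 1 fell (2 fell without replicate 1). *Pdk1*, the kinase that switches pyruvate dehydrogenase off, went from 1972 ± 274 to 3858 ± 599 (0.96, adjusted p = 1.34e-05). *Pdp1*, the phosphatase that switches it on, fell from 768 ± 30.1 to 412 ± 61.6 (-0.91, adjusted p = 2.39e-06). *Pdhb*, a subunit of the dehydrogenase itself, rose by 0.65 (adjusted p = 2.94e-06), on chromosome 14, whose median log2 fold change was 0.39. Of 5 lactate export genes 3 rose and 0 fell (1 fell without replicate 1). *Slc16a3*, the lactate exporter MCT4, went from 3293 ± 478 to 7806 ± 1377 with groups apart (1.24, adjusted p = 3.49e-06), *Slc16a1* rose by 0.38 (adjusted p = 0.00101) and *Bsg*, the chaperone of both, by 0.62 (adjusted p = 0.00737).

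The branches off the pathway moved the same way. Of 7 pentose phosphate genes 6 rose, with a median of 0.45, among them *Tkt* on chromosome 14 (0.88, adjusted p = 1.03e-05), *Rpia* (0.48, adjusted p = 4.62e-04) and *Pgd* (0.49, adjusted p = 8.07e-04). The exception *Pgls* had -0.11 (adjusted p = 0.345). Of 11 glycogen genes 7 rose and 0 fell, with a median of 0.59, and without replicate 1 the counts were 8 and 1. *Ppp1r3c*, which targets a phosphatase to glycogen, rose by 1.99 (adjusted p = 1.80e-05), the branching enzyme *Gbe1* by 1.03 (adjusted p = 2.60e-05), *Pgm2* by 0.59 (adjusted p = 1.28e-05) and the muscle phosphorylase *Pygm* by 1.82, with overlapping groups (adjusted p = 0.0181).

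Of 16 genes of the hypoxia response outside glycolysis, 11 rose and 1 fell, with a median of 0.75, and without replicate 1 the counts were 12 and 1. *Ero1l*, an oxidase of the endoplasmic reticulum on chromosome 14, rose by 2.53 (adjusted p = 6.13e-07), *Ndrg1* by 1.64 (adjusted p = 2.80e-05), *Adm*, a vessel-dilating peptide, by 1.40 (adjusted p = 0.00177), the carbonic anhydrase *Car9* by 1.37 (adjusted p = 1.21e-04) and *Egln3*, an oxygen-sensing hydroxylase, went from 4921 to 11536 (adjusted p = 5.51e-05). *Plin2*, which coats lipid droplets, fell by 0.51 on the log2 scale (adjusted p = 1.59e-04). Of 9 regulators of glycolysis genes 3 rose, against 21.1% of all genes, and 6 were not called. *Mlxipl*, which encodes the carbohydrate response factor ChREBP, went from 36.7 ± 17.6 to 151 ± 22.9 (2.13, adjusted p = 2.25e-05), *Mlx*, its partner, rose by 0.53 (adjusted p = 2.73e-04) and *Txnip*, which limits glucose uptake, by 0.44 (adjusted p = 0.0125). The mRNA of *Hif1a* had a log2 fold change of 0.11 (adjusted p = 0.452) and that of *Myc* -0.15 (adjusted p = 0.272).

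**Figure D4:**
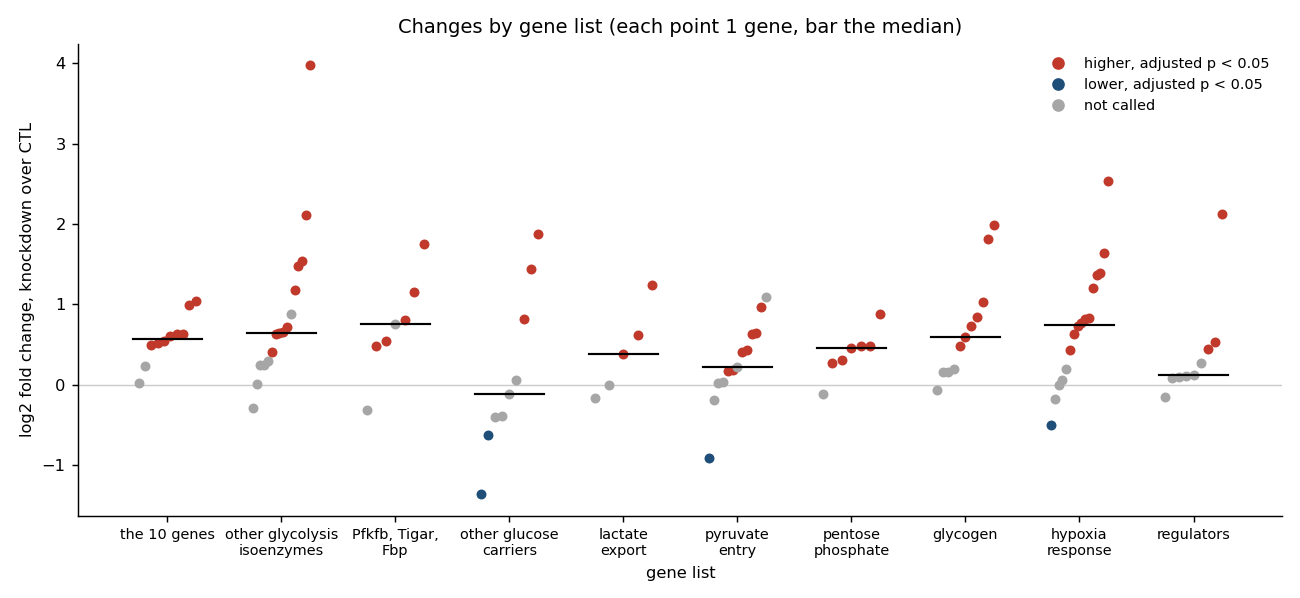
Log2 fold change in *Filip1l*-knockdown over CTL tumors of each gene in the 10 members and in 9 lists of related genes, with a bar at the median of each list and called genes in red (higher) or blue (lower). The medians run from -0.11 in the other Slc2 carriers (labeled other glucose carriers) to 0.76 in the fructose bisphosphate list. Without *Filip1l*-knockdown replicate 1 these 2 medians are -0.27 and 0.54. The median of the members is 0.57.

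Over the 12 tumors, the gene whose pattern lay closest to the mean of the members was *Hk1*, at a root mean square difference of 0.0596 on the log2 scale, among 12878 genes whose mean level reached 50. It was followed by *Frk*, a tyrosine kinase (0.0863), *Plpp2*, a lipid phosphatase (0.0898), *S100a16*, a calcium-binding protein (0.0920) and *Tpd52* (0.0933). *Pkm* stood at place 12 and *Gapdh* at place 16. Of the members themselves *Tpi1* was closest to the mean, at 0.0391, and *Hk2* farthest, at 0.294. All genes of this ranking share the tumors and the scaling, so it is a description.

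Marker lists of other cell types and states differed in how far they moved with the groups. The sums of the epithelial, endothelial and erythroid lists did not overlap between the groups, and those of the other marker lists did. The summed level of 17 skeletal muscle markers ran from 3395 to 16750 in the CTL group and from 7431 to 124636 after *Filip1l* knockdown, with 16 of 17 higher by adjusted p (11 of 17 without replicate 1). In *Filip1l*-knockdown replicates 2 and 6 the muscle sum, 10945 and 7431, lay inside the CTL range, and in these tumors *Hk2* was 8564 and 7667 and *Slc2a1* 14156 and 12852, above every CTL tumor. With the muscle level as a covariate, the same 8 members were called, with log2 fold changes from 0.54 to 1.18. With it the genes called went from 10 to 7 among the other glycolysis enzymes, from 5 to 4 among the other carriers and in the fructose bisphosphate list, from 8 to 7 in the pyruvate list, from 7 to 6 in the glycogen list and from 12 to 11 in the hypoxia list. *Pgam2*, *Eno3* and *Pygm* were highest in replicate 3, which had the highest muscle sum. Muscle markers rose with the knockdown, so the covariate fit cannot separate muscle from group. The part of muscle in the values of these genes and of the members was not tested.

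Of 7 epithelial markers 6 rose, and their sum was 135655 to 176354 in CTL tumors, 190752 in replicate 1 and 261649 to 355170 in the other *Filip1l*-knockdown tumors, so these markers of carcinoma cells were present in every tumor. Of 7 fibroblast markers 0 rose and 3 fell (6 fell without replicate 1), and their sum was 160711 to 262809 in CTL, 252839 in replicate 1 and 74997 to 158332 in the other 5. The hypoxia list summed to 51082 to 67480 in CTL, 72750.3 in replicate 1 and 103618 to 139258 in the other 5. By their sums, these 3 lists and the glycolysis members placed replicate 1 nearest to the CTL tumors. The fibroblast list did not do so by its mean log2 level relative to the CTL mean. That level was 0.55 in replicate 1, above the CTL tumors at -0.45 to 0.27, and -0.29 in *Filip1l*-knockdown replicate 3. Of 6 neutrophil markers 5 rose (without replicate 1, 5 rose and 1 fell), of 7 macrophage markers 2 (1 without replicate 1), of 4 adipocyte markers 2, of 5 erythroid markers 4, of 6 endothelial markers 5 and of 8 cell cycle markers 0, of which 2 fell. Of all genes 21.1% rose and 20.7% fell (22.4% and 21.8% without replicate 1). Replicate 1 had the highest neutrophil (2907), macrophage (20453) and endothelial (4891) sums of the 12 tumors. No marker was listed at 0 in any tumor, the lowest being *Retnlg* and *Adipoq*. The part of these cell types in the members' values was not tested.

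**Figure D5:**
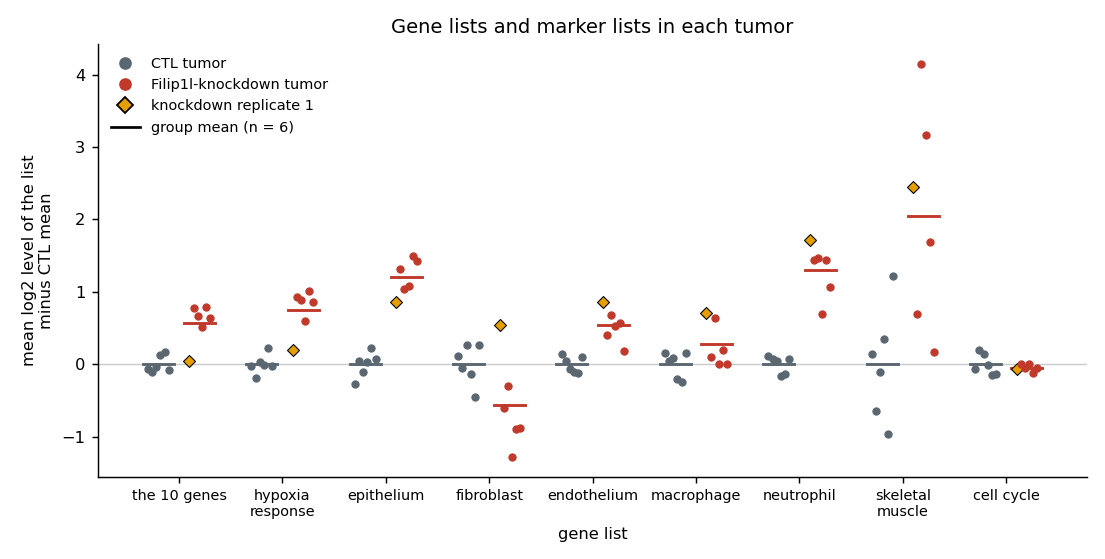
Mean log2 level of gene lists by tumor, set against the mean of the CTL group, for CTL and *Filip1l*-knockdown (KD) tumors, with group means as bars and *Filip1l*-knockdown replicate 1 as an orange diamond. In the glycolysis members replicate 1 is at 0.04, and the other 5 *Filip1l*-knockdown tumors are at 0.52 to 0.79.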

How the data were processed

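RNA from 12 tumors (6 CTL and 6 *Filip1l*-knockdown) was sequenced after selection of mRNA by oligo-dT. The authors trimmed reads with Trimmomatic 0.36, aligned them with STAR 2.5.2b, counted uniquely placed reads with featureCounts of Subread 1.5.2 and divided the counts by DESeq2 size factors. The deposited values are this normalized signal, not corrected for gene length. In 3 tumors the size of 1 read lies too near 1 to recover whole reads safely, so count tests were not run. Tumors were grouped by their labels.

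Values were analysed as log2(value + 1) with limma 3.58.1 (R 4.3.3), using its mean-variance trend and p-values adjusted by Benjamini-Hochberg over 15687 genes. A filter at a mean of 5 removed 0 genes. The method was tested on simulated data. Exact permutation tests used SciPy 1.17.1. Gene positions came from GENCODE vM21 on GRCm38, where 15661 identifiers were found. Alternatives were pseudocounts of 0.5 and 8, a filter at 20, rescaling, no trend, a replicate block, muscle as a covariate, chromosome medians removed and each tumor left out.

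The members and lists were chosen with earlier results of these data known. Genes named are the members, isoenzymes of their steps, *Gapdh*, *Pkm*, the genes of each list past the study's thresholds or among its 3 smallest adjusted p, the 5 genes most like the members and *Filip1l*. *Slc2a3*, *Pgls*, *Plin2*, *Hif1a*, *Fbp1*, *Myc*, *Eno1b* and *Spsb2* were named after their values were seen. The share of 1 of the 7 steps and 1 gene that the rule names are not reported here. Figures were drawn with matplotlib 3.10.9.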

Additional observations from a re-analysis of the deposited data

Results flagged for a closer look

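In 5 of 72 groups of 6 tumors, 1 tumor stood apart from the others by Dixon's ratio of gap to range, and chance gives about 1 in 20. The share of *Slc2a1* among its carriers was 84.5% in *Filip1l*-knockdown replicate 1, lowest by 0.698 of the group's range. The summed level of the glycogen genes was 18476 normalized counts in the same tumor, also lowest (0.637 of the range). That of the neutrophil markers was 2907 there, the highest of its group (0.662). In CTL tumors, the other Slc2 carriers summed to 1276 in replicate 3, the highest (0.811). The fructose bisphosphate list summed to 2018 in CTL replicate 4, the lowest (0.666).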

How the results depend on the processing

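Of 100 values of the members under alternatives with all tumors, 98 kept their direction and their side of the threshold, and 115 of 120 did so with 1 tumor left out. The exceptions were in *Pgam1* and *Eno1*. The log2 fold change of *Pgam1* was -0.025 when tumors were rescaled to the same total. With 1 tumor left out it ranged from -0.030 to 0.082, being below 0 without CTL replicate 6 or *Filip1l*-knockdown replicate 2, 3 or 5, and was called in 0 of these fits. It was 0.38 and called with chromosome medians removed. The value of *Eno1* was 0.33 and called without *Filip1l*-knockdown replicate 1. The number of members past the study's thresholds was 2 with muscle as a covariate and ranged from 0 (without *Filip1l*-knockdown replicate 2) to 2 (without CTL replicate 5 or *Filip1l*-knockdown replicate 1) with 1 tumor left out. The number of members called stayed between 8 and 9, and that of all genes between 5889 and 6931, with 1 tumor left out. With muscle as a covariate 8 members and 5036 of all genes were called, against 6566 of all genes without it. The *Slc2a1* share difference ranged from 3.75 to 5.91 percentage points with 1 tumor left out and was not past the threshold in 10 of 12 such tests. The causes were not tested.

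Replicate numbers did not pair the tumors, since deviations of same-numbered tumors correlated at -0.269 to 0.0990. With the replicate block 8 members were called, *Slc2a1* had an adjusted p of 3.89e-04 and *Eno1* of 0.0960, 5905 of all genes were called, and no member's call changed. The lowest value of a member in any tumor was 2744, for *Hk2*, so the spread between 6 tumors a group sets the precision more than counting error does.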
